A study of Mus musculus with 4 samples.

Results

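The small RNAs described here are 179 distinct sequences that align to the 3' UTR of Trim25, out of 7390 distinct sequences in 4 deposited lists. They were chosen by position. A sequence counted when its single best placement on the mouse genome NCBIM37, with at most 1 mismatch, lay in the annotated Trim25 3' UTR. Trim25 itself was selected on its high number of sequences in these lists, so its levels are a description without a test. The 4 libraries came from the liver and the spleen of C57BL/6 adult mice, 1 library for each tissue of a wild type (WT) mouse and of a mouse that lacks MIWI2, written Miwi2-/- here. The RNAs were size-selected on a gel, at about 24 to 31 nt by the sample labels, before sequencing. The lists hold each sequence once, with no read count, and only sequences from 3' UTR clusters, which are genes whose 3' UTR was enriched for small RNAs in these tissues. By the paper's account the clusters were called in the WT libraries, and Miwi2-/- sequences were then sought inside them. Genes in the lists were therefore selected through the WT libraries. With 1 library in each group there is no replicate check, and the tests below compare libraries or lists, not tissues or genotypes.

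Trim25 is a ubiquitin and ISG15 ligase of the tripartite motif (TRIM) family. It is best known for modifying the cytoplasmic RNA sensor RIG-I, which signals through MAVS to induce interferon. MIWI2, the product of Piwil4, is a PIWI protein that binds piRNAs in fetal germ cells and directs transposon silencing there. Canonical piRNAs are longer than microRNAs and mostly begin with uridine, and a class of testis piRNAs is cut from the 3' UTRs of mRNAs.

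Trim25 lies on the plus strand of chromosome 11 (ENSMUSG00000000275.9, chr11:88860690-88881607 in NCBIM37). All 179 sequences fell in the last 3' UTR piece of the gene, chr11:88878036-88881607, which is 3572 nt long and is the same interval as the Trim25 cluster that was deposited for liver and for spleen. No other annotated gene overlapped the region. Every sequence of the lists overlapped a deposited cluster interval of its tissue, so small RNAs outside these intervals could not be seen here. Positions below are counted in nt from the first base after the stop codon.

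Some 5' ends carried 2 or more sequences, namely 12 of 69 in WT liver, 14 of 65 in WT spleen, 1 of 6 in Miwi2-/- liver and none in Miwi2-/- spleen. These sequences mostly differed only at the 3' end. Position 1905 had 4 sequences in WT liver and 5 in WT spleen, the highest number at a 5' end in each list, which position 1906 also reached in liver and position 999 in spleen. Its 5 sequences begin at chr11:88879940 and are shown to let a reader see such a series. Capitals mark bases that do not match NCBIM37.
1905, 22 nt, WT liver and WT spleen: aaacaactaggttcagagaagA
1905, 24 nt, WT liver and WT spleen: aaacaactaggttcagagaagtgA
1905, 25 nt, WT liver, WT spleen and Miwi2-/- spleen: aaacaactaggttcagagaagtgga
1905, 26 nt, WT liver and WT spleen: aaacaactaggttcagagaagtggaa
1905, 29 nt, WT spleen: aaacaactaggttcagagaagtggaacaA

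Only 2 of the 5' ends, at positions 2960 and 2996, were found in all 4 lists. Their sequences are given because they tie the libraries to each other at single-base resolution. Position 2960 is chr11:88880995 and position 2996 is chr11:88881031. The mismatch called internal in a 2996 sequence is at the base before the last.
2960, 20 nt, Miwi2-/- liver: cggttgcatagacttgacca
2960, 23 nt, WT spleen and Miwi2-/- spleen: cggttgcatagacttgaccattA
2960, 24 nt, WT spleen: cggttgcatagacttgaccatttA
2960, 25 nt, WT liver: cggttgcatagacttgaccatttcC
2960, 26 nt, WT spleen: cggttgcatagacttgaccatttcAa
2996, 18 nt, WT spleen and Miwi2-/- spleen: aatggtgaaatggaaaag
2996, 24 nt, WT liver, WT spleen and Miwi2-/- liver: aatggtgaaatggaaaagtcttga
2996, 24 nt with an internal mismatch, WT liver and WT spleen: aatggtgaaatggaaaagtcttTa
2996, 25 nt, WT liver: aatggtgaaatggaaaagtcttgaA

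Trim25 was among the genes with the most 3' UTR sequences in every library. It had 91 of 4273 sequences in WT liver, or 2.13% of the list (95% Wilson interval 1.74 to 2.61%), and ranked 3 among 495 genes. In WT spleen it had 90 of 2634 sequences, or 3.42% (2.79 to 4.18%), and ranked 2 among 350 genes. The Miwi2-/- liver list held 7 Trim25 sequences of 560, or 1.25% (0.607 to 2.56%), at rank 6 of 211 genes. The Miwi2-/- spleen list held 15 of 378, or 3.97% (2.42 to 6.44%), at rank 3 of 132. The number of sequences was thus nearly equal in the WT lists of both tissues and was lower in both Miwi2-/- lists, which are themselves far shorter. Intervals cover counting error only.

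The order of the tissues depended on the denominator. As a share of the list, Trim25 was 1.60 times as high in WT spleen as in WT liver (95% interval of the ratio 1.20 to 2.14). Against all distinct sequences that aligned uniquely in a library, the ratio was 0.494 (0.369 to 0.662), with 6.97 Trim25 sequences per 10000 in WT spleen and 14.1 in WT liver. The list is 2.04% of the uniquely aligned sequences in WT spleen and 6.62% in WT liver. Which tissue had the higher level cannot be stated from these lists.

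The ratio of Miwi2-/- to WT shares was 0.587 in liver (0.273 to 1.26) and 1.16 in spleen (0.680 to 1.98), and both intervals include a ratio of 1. Per 10000 uniquely aligned sequences, the Miwi2-/- libraries held 5.27 Trim25 sequences in liver and 5.95 in spleen. On that scale the ratio to WT was 0.374 in liver (0.173 to 0.806) and 0.854 in spleen (0.494 to 1.47). When distinct 5' ends were counted in place of sequences, the ratio of list shares was 0.748 in liver (0.327 to 1.71) and 1.81 in spleen (1.05 to 3.13). The number of distinct sequences does not grow in proportion to depth, so the genotype and the depth of these libraries cannot be told apart in these ratios. Nor are the ratios free of the selection, since the cluster of Trim25 was called in the WT libraries.

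**Figure D1:**
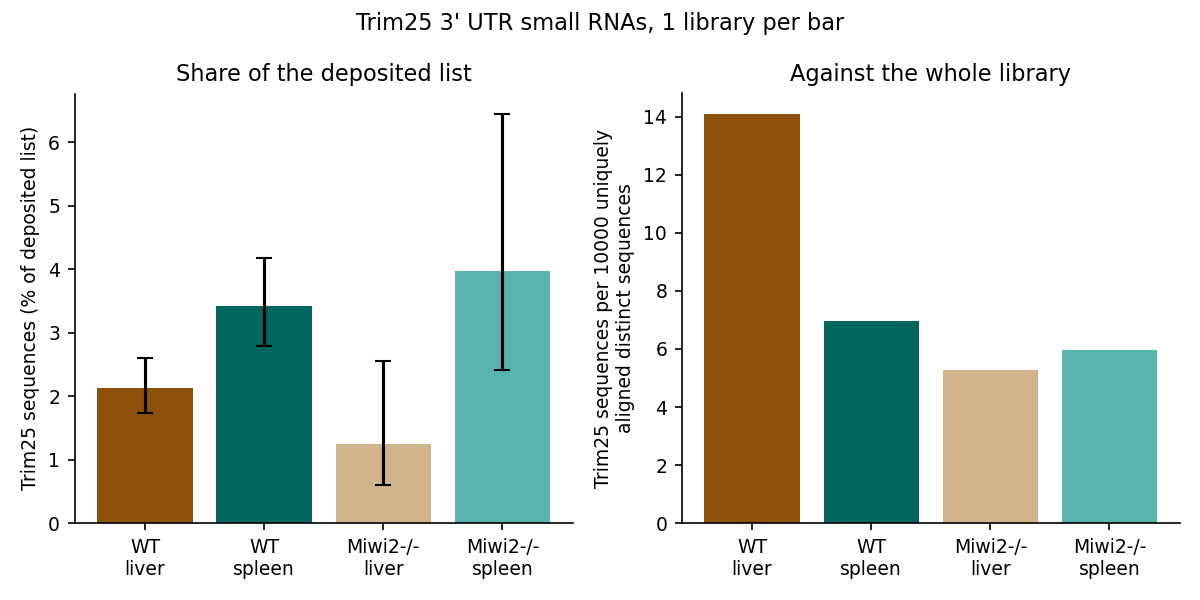
Trim25 3' UTR sequences as a percentage of each deposited list (left, bars with 95% Wilson intervals) and per 10000 uniquely aligned distinct sequences (right, no interval drawn), with 1 library per bar. WT spleen stands above WT liver on the left at 3.42% against 2.13%, and below it on the right at 6.97 against 14.1.

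The labels of the WT lists were checked with marker genes. Every Miwi2-/- sequence lay in a cluster interval of the tissue named by its label. A Miwi2-/- list could thus hold a marker only where that tissue had a cluster, so the tissue labels of the Miwi2-/- lists were not checked. Of 10 hepatocyte genes, 5 had sequences in the WT liver list (149 sequences, 84 of them from Alb, the albumin gene) and 4 in the Miwi2-/- liver list (20 sequences), and none had any in either spleen list. The 10 markers of spleen lymphoid, myeloid and erythroid cells had no sequence in any list, with 1 of them not matched in the annotation, so the spleen label was not checked by its own markers. Piwil4 had no sequence in any list, which leaves the knock-out unchecked here. Of 26 genes of the RIG-I and ISG15 pathway, only 2 had sequences besides Trim25, which was not on that list. Stat2, a transcription factor of interferon signalling, had 5 sequences in WT liver and 1 in Miwi2-/- liver, and Traf3, an adaptor below MAVS, had 7 in WT spleen. Of 67 genes of the TRIM family, Trim25 was the only one with sequences. These are 7.69% of the pathway list and 1.49% of the TRIM family, beside 792 of 22238 annotated protein-coding genes with a sequence in any list, or 3.56%. The lists hold only clusters that passed a selection, so a count of 0 does not show that a gene had no small RNAs.

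Trim25 sequences spanned nearly the whole 3' UTR. Their 5' ends ran from position 35 to 3349 in WT liver (median 2173) and from 103 to 3549 in WT spleen (median 2173.5). The sequences covered 952 nt of the 3' UTR in WT liver (26.7%) and 843 nt in WT spleen (23.6%). In Miwi2-/- liver the 5' ends ran from 721 to 3004 and covered 121 nt, and in Miwi2-/- spleen they ran from 719 to 3470 and covered 250 nt. Between positions 2501 and 3000 lay 29 of the 91 WT liver and 36 of the 90 WT spleen sequences, more than in any other stretch of 500 nt counted in steps from the stop codon. That stretch also held 2 of the 7 Miwi2-/- liver and 7 of the 15 Miwi2-/- spleen sequences. Between 1001 and 1500 there were 15 in WT liver and 8 in WT spleen, and between 2001 and 2500 there were 17 and 6.

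The last 100 nt are a small part of the 3572 nt 3' UTR, and counts near transcript ends were not compared with an even spread. In the last 100 nt before the annotated end of the gene, 1 sequence ended in WT spleen and 1 in Miwi2-/- spleen, and none in the liver lists. The WT spleen sequence ended on the last annotated base, at chr11:88881607, and its last base differed from the genome.
3549, 24 nt, WT spleen: tgaataaagttcaaatcataagtA
An annotated shorter transcript ends at position 632, and 2 sequences of each WT list ended in its last 100 nt.

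**Figure D2:**
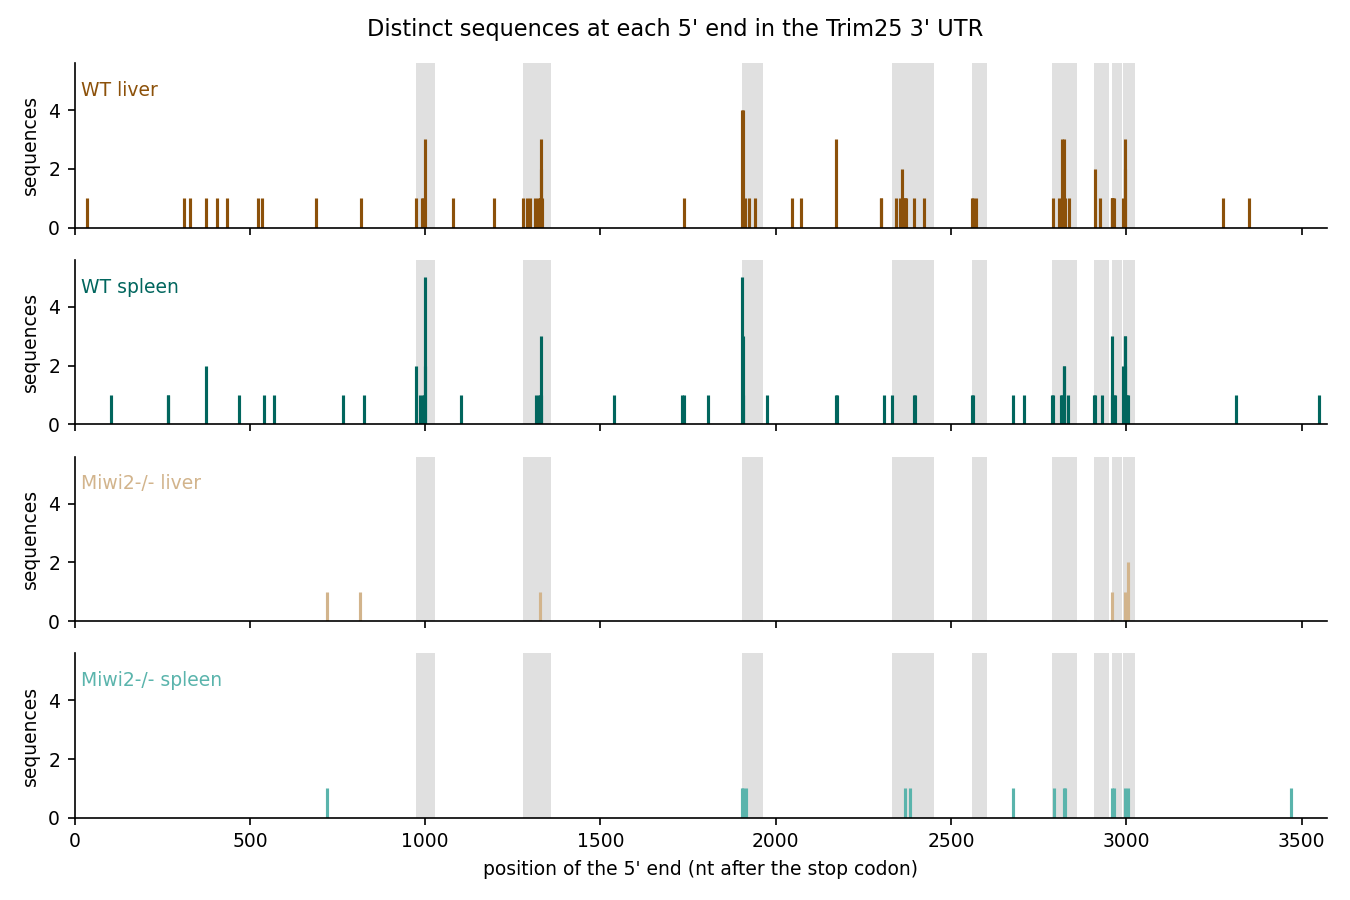
Number of distinct sequences (vertical axis) at each 5' end along the Trim25 3' UTR (horizontal axis, nt after the stop codon), 1 panel per library, with grey bands for the 9 sites that held 5 or more sequences. The bands were picked on the counts drawn here. Both WT panels have sequences in all 9 bands, with at most 4 sequences at a position in liver and 5 in spleen.

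Overlapping sequences formed 39 separate sites. Sequences of both WT lists were present at 15 sites, which held 79 of the 91 WT liver sequences (86.8%) and 76 of the 90 WT spleen sequences (84.4%). A further 10 sites had WT liver but no WT spleen sequences, 13 had WT spleen but no WT liver sequences, and 1 had a Miwi2-/- sequence only. Of the 39 sites, 20 rested on 1 distinct sequence. All 9 sites with 5 or more distinct sequences were found in both WT lists. They span 540 nt, or 15.1% of the 3' UTR, and held 69 WT liver (75.8%), 67 WT spleen (74.4%), 5 Miwi2-/- liver and 12 Miwi2-/- spleen sequences. These 9 sites were picked on the same counts, so a high share of sequences in a short length follows in part from the choice. No chance level for this overlap was computed.

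Within the same sites the numbers differed between the tissues. The site at 2991 to 3025 had 6 sequences in WT liver and 15 in WT spleen, and that at 973 to 1029 had 6 and 12. The opposite order was seen at 1280 to 1359, with 13 in WT liver and 7 in WT spleen, and at 2332 to 2450, with 10 and 3. The site with the most sequences, 2787 to 2859, was close to even at 12 and 10, and so was 1905 to 1964 at 11 and 9. These sites were picked after their values were seen, so no test was made.

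**Figure D3:**
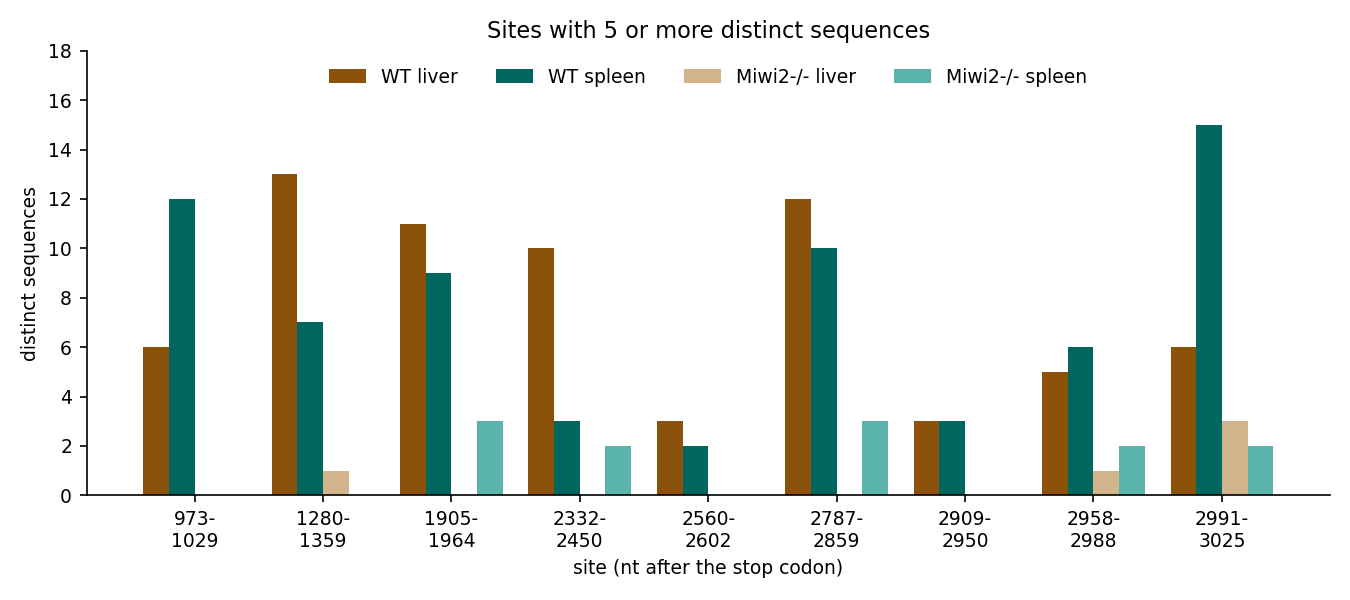
Distinct Trim25 sequences (bars) at the 9 sites with 5 or more sequences, by library, with the sites named on the horizontal axis by their first and last nt after the stop codon. WT liver and WT spleen have bars at all 9 sites, Miwi2-/- liver at 3 and Miwi2-/- spleen at 5.

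Identical sequences were less frequent than shared sites. The WT lists had 15 sequences in common, which is 16.5% of the liver and 16.7% of the spleen sequences. They shared 19 5' ends, or 27.5% of the 69 in liver and 29.2% of the 65 in spleen, and these carried 40 sequences of each list. When ends within 1 nt were counted as shared, 33 of the 65 spleen ends had a counterpart in liver, and within 2 nt 39 did. Position 999, at chr11:88879034, had 3 sequences in WT liver and 5 in WT spleen and none in the Miwi2-/- lists. A pair of them was common to both WT lists.
999, 21 nt, WT liver and WT spleen: tactgggctgatggctataaa
999, 24 nt, WT liver and WT spleen: tactgggctgatggctataaatgA

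The few Miwi2-/- sequences often began where WT sequences began. Of the 7 Miwi2-/- liver sequences, 5 started at a 5' end of a WT list and 2 were identical to a WT sequence. The 15 Miwi2-/- spleen sequences each had a 5' end of their own, 8 of which were WT 5' ends and 11 of which lay within 2 nt of one. Of these 15 sequences, 7 were identical to a WT sequence. Within a tissue, Miwi2-/- liver shared 3 of its 6 ends with WT liver and Miwi2-/- spleen shared 6 of its 15 with WT spleen, and the numbers were the same across tissues, at 3 with WT spleen and 6 with WT liver. Over all lists, 157 of the 179 sequences were in 1 list, 20 in 2 lists, 2 in 3 lists and none in all 4. Beside the sequences already printed, the following were found in a Miwi2-/- and a WT list, and the 2678 one had the same internal mismatch to the genome in both.
1906, 25 nt, WT liver and Miwi2-/- spleen: aacaactaggttcagagaagtggaa
2370, 29 nt, WT liver and Miwi2-/- spleen: aatgttgatgtaaaatcctgtcgttgatc
2678, 23 nt, WT spleen and Miwi2-/- spleen: ctctggattgaggCgtgggtgaa
2966, 23 nt, WT liver and Miwi2-/- spleen: catagacttgaccatttctatcA
3004, 22 nt, WT spleen and Miwi2-/- liver: aatggaaaagtcttgaccagaA

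Most Trim25 small RNAs were shorter than 27 nt. In WT liver they were 17 to 32 nt long with a median of 24 nt, and the most frequent length was 24 nt, with 14 sequences. In WT spleen they were 18 to 31 nt long with a median of 23 nt, and the most frequent length was 23 nt, with 18 sequences. These peaks depend on the last base. With a last A that mismatched the genome left out, the most frequent lengths were 22 and 24 nt in WT liver and 22 nt in WT spleen. With any last A left out, they were 23 nt in WT liver and 22 nt in WT spleen. The medians in the Miwi2-/- lists were 22 nt in liver and 23 nt in spleen. Lengths of 21 to 25 nt made up 48 of 91 sequences in WT liver (52.7%) and 54 of 90 in WT spleen (60.0%), a difference of 7.25 percentage points (-7.08 to 21.2, adjusted p = 0.819 by a two-sided Fisher's exact test). Lengths of 27 nt or more made up 28.6% in WT liver and 18.9% in WT spleen, a difference of -9.68 points (-21.7 to 2.76, adjusted p = 0.541 by the exact test). Neither difference between the libraries was past the threshold of 0.05.

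The other sequences of the lists were also mostly of these lengths. The rest of a list is taken here as its other sequences in annotated 3' UTRs of 1 strand, read in the direction of the gene, which were 3521 in WT liver and 2145 in WT spleen. Of these, 57.1% in liver and 63.4% in spleen were 21 to 25 nt long, against which Trim25 differed by -4.37 points (-14.7 to 5.70) and -3.36 points (-13.9 to 6.38). The adjusted p was 0.824 and 0.843 by the exact test. P values were adjusted by the Benjamini-Hochberg method over 20 Fisher tests, and sequences that overlap are not independent, so these p values are too small.

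**Figure D4:**
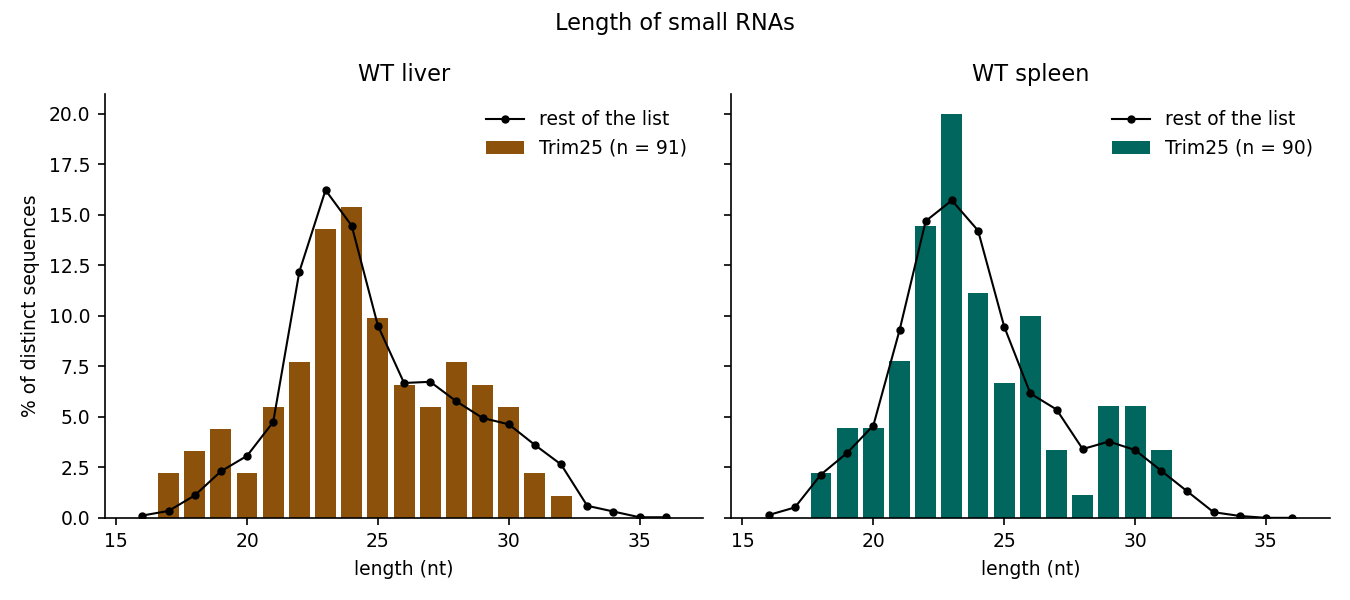
Length in nt (horizontal axis) of Trim25 sequences (bars, % of the 91 in WT liver and the 90 in WT spleen) and of the rest of each list (line with points). The bars peak at 24 nt in WT liver and 23 nt in WT spleen, and the lines at 23 nt in both. Lengths include a last A that mismatched the genome.

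Trim25 sequences began with A more often than with any other base in both WT lists. The 5' base was A in 46 of 91 sequences in WT liver, or 50.5% (40.5 to 60.6%), and in 53 of 90 in WT spleen, or 58.9% (48.6 to 68.5%). It was U in 22.0% and 23.3%, C in 16.5% and 12.2%, and G in 11.0% and 5.56%. In the Miwi2-/- lists A was first in 3 of 7 liver and 7 of 15 spleen sequences. The 5' A share of WT spleen exceeded that of WT liver by 8.34 points, with an interval that includes 0 (-6.06 to 22.3, adjusted p = 0.819 by Fisher's exact test). Miwi2-/- spleen differed from WT spleen by -12.2 points (-36.1 to 13.2, adjusted p = 0.819 by the exact test), and with exact matches only, which leave 5 Miwi2-/- spleen sequences, by 27.5 points (adjusted p = 0.501 by the exact test).

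The excess of 5' A was measured against the Trim25 3' UTR itself, of which 23.9% is A. It came to 26.7 points in WT liver (adjusted p = 7.87e-08) and 35.0 points in WT spleen (adjusted p = 5.47e-12) by two-sided exact binomial tests, adjusted over 4. When each distinct 5' end counted once, the excess was 16.7 points in liver (adjusted p = 0.00521) and 30.0 points in spleen (adjusted p = 8.26e-07) by the same exact test. U makes up 29.1% of the 3' UTR, from which the 5' U share differed by -7.17 points in liver and -5.81 points in spleen, neither past the threshold (adjusted p = 0.221 and 0.247, exact binomial test).

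Against the rest of the lists, Trim25 had more 5' A and less 5' U. The rest began with A in 36.6% and with U in 39.1% of sequences in WT liver, and in 38.1% and 39.0% in WT spleen. The 5' A share of Trim25 was higher by 13.9 points in liver (3.70 to 24.1, adjusted p = 0.0405) and by 20.8 points in spleen (10.3 to 30.6, adjusted p = 0.00198) by Fisher's exact test. The 5' U share differed by -17.1 points in liver (-24.6 to -7.45, adjusted p = 0.00691) and by -15.7 points in spleen (-23.5 to -5.76, adjusted p = 0.0177) by the same exact test. None of these 4 differences passed the threshold when each distinct 5' end was counted once, where the 5' A difference was 2.55 points in liver and 12.7 points in spleen (adjusted p = 1 and 0.355, exact test). In WT liver, 12 of the 69 ends carried 2 or more sequences and 34 of the 91 sequences, and in WT spleen 14 of the 65 ends carried 39 of the 90. Vmp1, the gene with the most sequences, gave 217 sequences in WT liver and 215 in WT spleen to the rest. Without Vmp1, the 5' A difference in liver (11.9 points) and the 5' U difference in spleen (-10.2 points) missed the threshold. The 5' A difference in spleen (17.4 points) and the 5' U difference in liver (-13.9 points) still passed it.

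**Figure D5:**
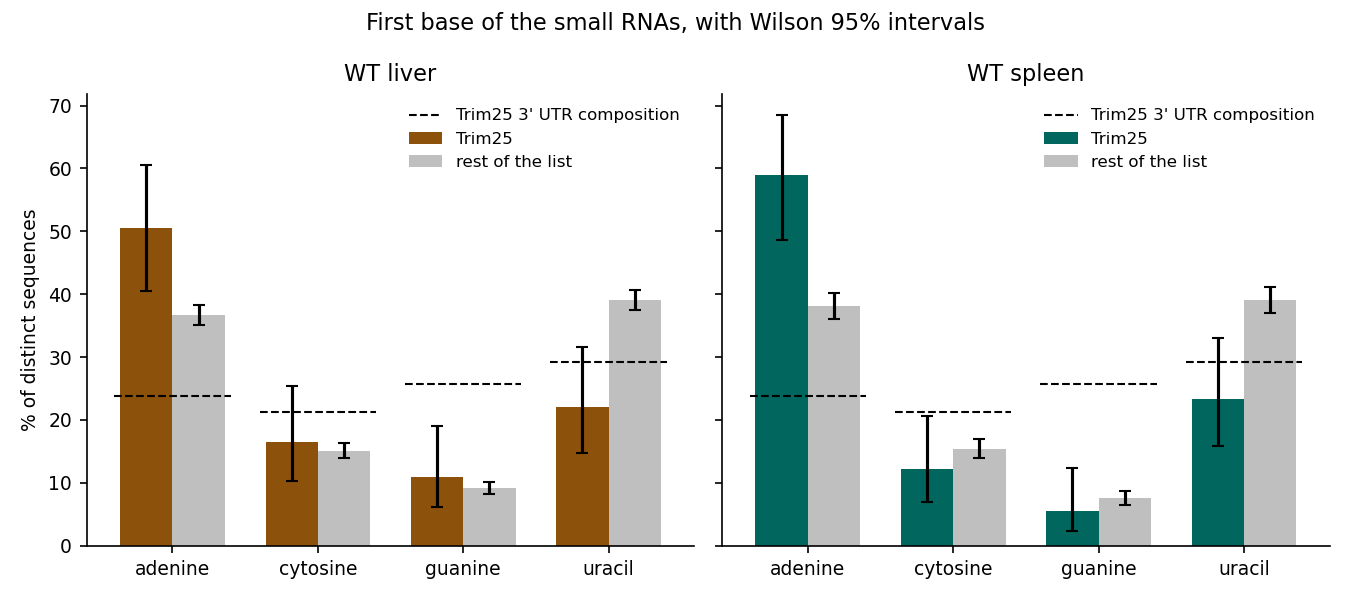
First base of Trim25 sequences (coloured bars) and of the rest of the list (grey bars) as % of distinct sequences in WT liver and WT spleen, with 95% Wilson intervals and dashed lines for the base composition of the Trim25 3' UTR. The adenine bars of Trim25, at 50.5% and 58.9%, stand above both the grey bars and the dashed line at 23.9%.

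At the distinct 5' ends, the genome base was A in 40.6% of 69 ends in WT liver and 53.8% of 65 in WT spleen. The second base was A in 39.1% and 43.1%, and the third in 24.6% and 29.2%. The base just before the 5' end was A in 34.8% and 32.3%, and the one before it in 29.0% and 27.7%. The A content was above the 23.9% of the whole 3' UTR at each of these 5 positions, though only barely at the third base in liver. It was highest at the 5' end, but in liver the second base was almost as high. Against the composition of the covered bases only, the 5' A excess of sequences was smaller, at 20.6 points in WT liver and 30.2 in WT spleen. The covered bases thus held more A than the whole 3' UTR, and the values by position were not compared with them or tested.

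Most Trim25 sequences also ended in A. This was the case for 78 of 91 sequences in WT liver (85.7%) and 80 of 90 in WT spleen (88.9%), and for 6 of 7 and 13 of 15 in the Miwi2-/- lists. In the rest of the lists it was also the case for 82.4% of sequences in liver and 79.6% in spleen of the WT mouse, and for 74.0% and 73.2% in the same tissues without MIWI2, and the difference from Trim25 was not tested. Part of these last bases were not in the genome. Over all 179 sequences, 86 matched the genome fully, 72 had their 1 mismatch at a 3'-terminal A, 3 at another 3'-terminal base and 18 elsewhere. Most of these 18 had it at the base before the last, so nearly all mismatches lay at or next to the 3' end. A mismatched 3'-terminal A was found in 34 sequences of WT liver (37.4%) and 35 of WT spleen (38.9%). In the Miwi2-/- lists it was found in 2 of the 7 of liver (28.6%) and 9 of the 15 of spleen (60.0%), which is lower than WT in liver and higher in spleen. The spleen libraries differed by 21.1 points, with an interval that includes 0 (-5.25 to 43.4, adjusted p = 0.541 by Fisher's exact test). In the rest of the lists the share was 42.2% in WT liver and 41.0% in WT spleen, and Trim25 differed from it by -4.81 points (-14.2 to 5.58) and -2.14 points (-11.8 to 8.40). The rest of the Miwi2-/- lists had 38.9% in liver and 38.5% in spleen. Among the Trim25 sequences that matched the genome fully, 38 of 50 in WT liver and 34 of 40 in WT spleen ended in A as well (76.0% and 85.0%), beside 80.1% and 76.2% of such sequences in the rest of the lists. An A added to the RNA and an adapter base left on the read cannot be told apart in these lists.

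Among the 8 genes with at least 10 sequences in each WT list, the 5 whose levels over the 4 libraries were most like those of Trim25 were Elk4, Tnrc6b, AI464131, Dnmt3a and Mbnl1. Likeness was the distance between the log2 shares of the lists, each centred on its own mean over the 4 libraries. The distance was 1.08 for Elk4, an ETS family transcription factor, with 11, 19, 2 and 4 sequences in WT liver, WT spleen, Miwi2-/- liver and Miwi2-/- spleen. It was 1.20 for Tnrc6b, a GW182 protein of microRNA silencing, with 16, 14, 3 and 3. The other distances were 1.57 for AI464131, 1.91 for Dnmt3a and 1.91 for Mbnl1. In the same order of lists, AI464131 had 12, 10, 3 and 2 sequences. Dnmt3a had 10, 21, 5 and 4, and Mbnl1 had 15, 49, 7 and 10. All 5 genes had a higher share of the list in Miwi2-/- than in WT liver, where the share of Trim25 was lower. They are the nearest of the 8 genes and did not share that pattern, and their Miwi2-/- counts are small.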

How the data were processed

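Small RNAs of 4 libraries were sequenced by the authors, 1 per tissue and genotype, with the Illumina Small RNA v1.5 kit. The submitters' processing notes name CASAVA 1.8, cutadapt, Bowtie and bedtools. The authors trimmed adapters, collapsed identical reads, removed known noncoding RNAs and kept single alignments to mm9 with at most 1 mismatch. The deposited values are therefore neither counts nor normalized expression but lists of distinct sequences and cluster intervals, so a rare and an abundant RNA weigh the same.

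The sequences were placed on NCBIM37 with at most 1 mismatch (Python 3.11.15, numba 0.67.0, numpy 2.4.6). In a test on simulated data, 100% of 313 exact and 350 sequences with 1 mismatch returned to their own position. Of the members that matched exactly, 13 in WT liver, 14 in WT spleen and 1 in Miwi2-/- spleen also had a site elsewhere at 1 mismatch. All deposited sequences read along the plus strand, so antisense RNAs could not be told apart. Genes were taken from GENCODE M1, with at least 50% of a sequence in the 3' UTR. Totals of uniquely aligned distinct sequences were read from the study's supplement and used as denominators only. Wilson intervals, Fisher's exact tests and exact binomial tests were computed with scipy 1.17.1. The methods of the study give a wider gel range than the labels.

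The members, gene lists and tests were chosen with earlier results of these data known. The genes named are Trim25, those of the pathway and TRIM lists with a sequence in any list, and the 5 most alike of the genes with at least 10 sequences in each WT list, with 0.5 added before the log2. Alternatives are listed in the closing section.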

Additional observations from a re-analysis of the deposited data

Results flagged for a closer look

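The share of Trim25 in the list was lower in Miwi2-/- than in WT liver, at a ratio of 0.587, and higher in Miwi2-/- than in WT spleen, at a ratio of 1.16. These are opposite directions in the 2 tissues. The difference between the tissues was not tested, since each value rests on 1 library per genotype. The spleen ratio was 1.98 times the liver ratio, with a 95% interval for counting error of 0.778 to 5.03 that includes 1. Per uniquely aligned sequence both ratios were below 1, at 0.374 in liver (0.173 to 0.806) and 0.854 in spleen (0.494 to 1.47). By distinct 5' ends the ratios of list shares were 0.748 in liver (0.327 to 1.71) and 1.81 in spleen (1.05 to 3.13). Whether an interval included 1 thus depended on the setting.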

How the results depend on the processing

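Of 135 values recomputed under another setting, 110 stayed on the same side of the threshold or, where no test was made, moved by no more than the counting interval or, for counts, 1.5 times. Of these 110, 17 changed sign, none of them past the threshold. With exact matches, Miwi2-/- spleen less WT spleen went from 6.67 to -20.0 points at 21 to 25 nt and from -5.56 to 30.0 points at 27 nt or longer. Sequences past the annotated end could not be added, since the lists end with the deposited interval. The paper's methods extended a somatic cluster past its 3' UTR where sense small RNAs continued. The Trim25 interval stops at the annotated end in both tissues. The spleen to liver ratio in WT turned from 1.60 to 0.494 with uniquely aligned sequences as the denominator. Counting only exact matches, Trim25 had 50 sequences in WT liver, 40 in WT spleen and 5 in Miwi2-/- spleen. With 21 to 25 nt only there were 48 and 54 in the WT lists, and with 27 nt or longer only 26, 17, 1 and 2 in WT liver, WT spleen, Miwi2-/- liver and Miwi2-/- spleen. These settings keep fewer sequences by construction. The 19 5' ends shared by the WT lists became 33 within 1 nt, 39 within 2 nt, 11 with exact matches and 10 at 21 to 25 nt, and the 3 shared by the liver lists became 1 at 21 to 25 nt.

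Against the rest of the list, counting each 5' end once gave 5' A differences of 2.55 points in liver and 12.7 in spleen and 5' U differences of -9.86 and -8.85, none past the threshold. The most crowded 100 nt, 2905 to 3004, held 14 WT liver and 24 WT spleen sequences. Without them, the 5' A difference in liver was 12.7 points (exact test, adjusted p = 0.155). Exact matches gave 12.1 for 5' A in liver, and -8.99 and -16.2 for 5' U in liver and spleen. Without Vmp1 in the rest, 5' A in liver was 11.9 and 5' U in spleen -10.2. All of these missed the threshold in Fisher's exact test, and the cause was not tested. The 5' A excess over the 3' UTR composition passed it in both WT lists under each of the 3 settings tried. Leaving any 3'-terminal A out of the length was added after seeing the data and changed no call.

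No paired analysis was possible because each group has 1 library and the labels give no replicate numbers. For the same reason no replicate was left out. Without read counts, abundance and depth per RNA are unknown, and 7 Miwi2-/- liver sequences limit any statement on that library.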
